A study of Mus musculus with 23 samples.

Results

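The cytosolic ribosomal protein genes were described across 8 groups of mouse head and neck tumour samples. The members were the protein-coding genes whose symbol starts with Rpl or Rps followed by a digit, or with Rplp, together with Rpsa, and the rule found 89 of 36793 genes (20997 of them protein-coding). Of these, 82 are named as ribosomal proteins, with 48 of the large subunit, 31 of the small subunit and 3 of the stalk, and 7 are named as copies of another member (Rpl10-ps3, Rpl36-ps4, Rpl36a-ps1, Rpl9-ps1, Rpl9-ps6, Rps12-ps3 and Rps27rt). The rule left out 12 genes, which were 10 Rps6k kinases, Rps19bp1 and Rps27l. Rpl24 was not analysed here.

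The cytosolic ribosome is built from a large and a small subunit, each a core of ribosomal RNA covered by about one copy of every ribosomal protein, so their messages are usually made in a set ratio. Messages of ribosomal proteins carry a run of pyrimidines at the very start, the 5'TOP motif, through which mTOR signalling and the protein LARP1 control their translation, and MYC is a known driver of ribosome production. Ribosomal protein genes have left many processed copies in the mouse genome, which makes it hard to assign short reads to the parent gene.

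RNA sequencing covered macrophages, tumour cells and colonies from 3 tumour models. MEER cells are oropharyngeal epithelial cells of C57/Bl6 mice that carry an activated Ras, in an HPV-positive form, which carries papillomavirus oncogenes, and an HPV-negative form, and each form is a single line. SCCVII is a squamous carcinoma line of C3H/HeJ mice, so strain goes along with model and the effects of strain and model cannot be told apart. Macrophages (CD45+, CD11b+, Gr1-, F4/80 high) were sorted from subcutaneous tumours of each model with 3 libraries per model, each from a pool of 3 to 4 mice. Tumour cells of each line came from culture as 3 aliquots, and nothing says that these were grown apart, so a p-value among them reflects aliquot-to-aliquot spread that may be purely technical. Colonies, called macrophage progenitors in the labels and grown for 9 days in a haematopoietic stem cell medium, gave 3 libraries from HPV-negative MEER and 2 from SCCVII. The HPV-negative colonies stand in a table of their own, and the effects of table and group cannot be told apart. Depth was 26848759 to 47609481 counts per library over 23 libraries.

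Copies of some members differ from them by a few bases over the whole coding sequence, and in SCCVII libraries the counts stood on the copies. The stretches below, from the GENCODE M21 transcripts on GRCm38, are shown for Rpl3, Rpl26 and Rps3a1, whose counts shifted so. No C3H/HeJ sequence was read, and whether these bases placed the SCCVII counts was not tested. Capitals mark the bases that differ between the member and its copy, and positions count from the first base of the member's start codon. Rpl3, a large-subunit protein close to the catalytic centre, lies on the minus strand at chr15:80077791-80091868 and has a copy, Rpl3-ps1, on the plus strand at chrX:13202571-13203780. They differ at 2 of 1209 coding bases (99.8% identity), and positions 27 to 86 read as follows.
Rpl3: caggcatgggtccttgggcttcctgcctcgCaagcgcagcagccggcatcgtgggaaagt
Rpl3-ps1: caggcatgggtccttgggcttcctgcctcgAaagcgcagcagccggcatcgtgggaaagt
Rpl26 lies on the plus strand at chr11:68901583-68906989, and its copy Gm15772 on the plus strand at chr5:3236431-3236868. They differ at 2 of 435 coding bases (99.5% identity), and positions 147 to 206 are shown.
Rpl26: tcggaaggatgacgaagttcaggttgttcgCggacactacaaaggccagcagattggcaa
Gm15772: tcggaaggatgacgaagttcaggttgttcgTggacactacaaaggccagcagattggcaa
Rps3a1, a small-subunit protein, lies on the minus strand at chr3:86137940-86142702, and its copy Rps3a2 on the minus strand at chr14:88123017-88123808. They differ at 4 of 792 coding bases (99.5% identity), and positions 627 to 686 are shown.
Rps3a1: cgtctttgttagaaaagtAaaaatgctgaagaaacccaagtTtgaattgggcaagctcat
Rps3a2: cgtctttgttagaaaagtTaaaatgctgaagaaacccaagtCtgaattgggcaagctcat

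The Rpl3 level was 1230 to 1400 TPM in HPV-negative MEER macrophages and 1.26 to 1.91 TPM in SCCVII macrophages (TPM is a level per transcript length, scaled to the same sum in each library). Rpl3-ps1 stood at 257 to 293 TPM in the first and 1900 to 2040 TPM in the second. The same held in tumour cells, where Rpl3 was at 1650 to 1920 TPM in HPV-negative MEER and 2.58 to 4.37 TPM in SCCVII, and in colonies, with 1060 to 1120 TPM and 3.33 to 3.61 TPM. In each of these pairs the groups did not overlap. Gm15772 ranged from 6.29 to 20.9 TPM over the MEER libraries and from 2000 to 3340 TPM over the SCCVII libraries. Rps3a2 ranged from 8.04 to 16.5 TPM and from 1310 to 2010 TPM, and a further copy of Rps3a1, Rps3a3, from 2.05 to 4.68 TPM and from 770.0 to 1430 TPM.

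Each member was therefore also summed with its copies, defined by sequence as genes whose transcript aligns to the member with at least 90% identity over at least 60% of the copy's length. This gave 82 families, 675 copies outside the members and 76 members with a copy. Of the 79 families with at least 1000 counts in a library, 37 had a member that held at least 90% of the family's counts in every library. In 16 families it held under 50% in every library, among them Rps29 (at most 0.939%) and Rps6 (at most 0.771%). In 11 families the median own share of the SCCVII libraries lay more than 10 percentage points under that of the MEER libraries. The Rpl3 share was 80.4 to 86.6% in MEER libraries and 0.0706 to 0.333% in SCCVII libraries. Rpl29 went from 97.4 to 98.9% down to 0.923 to 1.96%, and Rps2 from 98.5 to 99.0% down to 0.594 to 1.15%. Rps18 held 99.5 to 99.8% in MEER and 20.5 to 24.3% in SCCVII libraries. Of the members' values 84.3% were not whole, against 13.1% of all values. RSEM, the counting program, divides a read among the genes it fits, which gives such fractions. Values below are family sums unless a member's own counts are named, and for several members both are given.

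**Figure D1:**
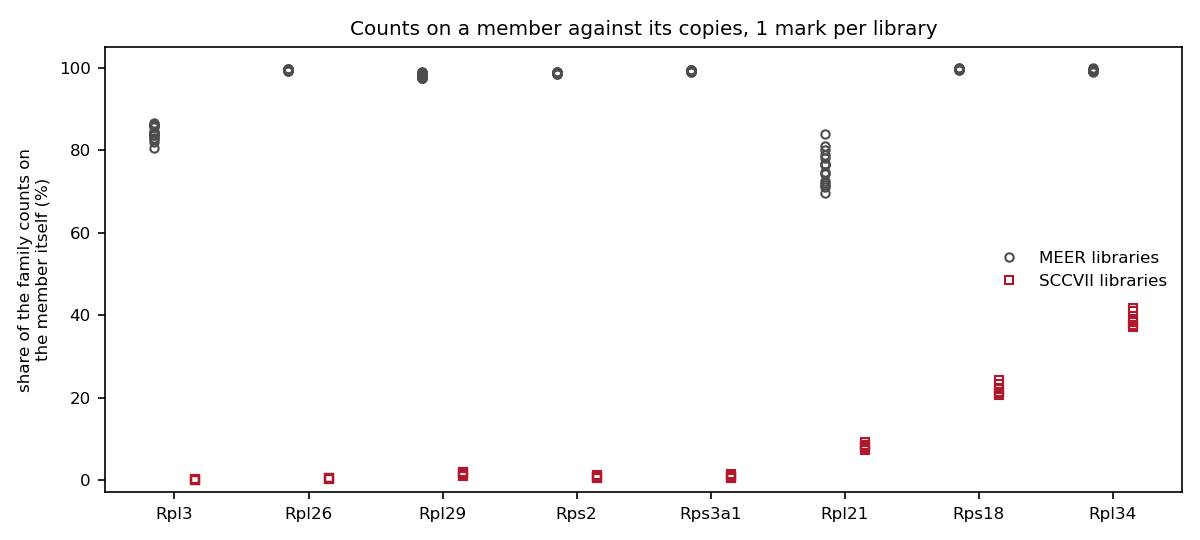
Share of each family's counts that fell on the member itself, in %, for 8 families, with 1 mark per library and separate marks for the MEER and SCCVII libraries. Rpl3, Rpl26, Rpl29, Rps2 and Rps3a1 are near 0 in every SCCVII library and above 80% in every MEER library, and Rpl21, Rps18 and Rpl34 are lowered in part.

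By level per length, 51 of the 89 members had a median of at least 1000 TPM over the 23 libraries, 11 lay from 1 to under 100 TPM and 5 lay under 1 TPM. The highest medians were those of Rplp1 (4130 TPM), Rps12 (3020 TPM), Rplp2 (2860 TPM), Rps24 (2670 TPM) and Rpl41 (2610 TPM). Rplp1 and Rplp2 belong to the stalk, which binds elongation factors and is thought to be present in more than one copy per ribosome. The lowest were Rpl10l, Rpl36-ps4 and Rpl9-ps1 (median 0.00 TPM), Rpl3l (0.04 TPM) and Rpl39l (0.10 TPM). Of the family sums, 75 of 82 reached a median of 1000 TPM and the highest was Rplp1 at 4150 TPM.

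Several members have a paralog, a second gene for a closely related protein, and the paralogs ranged from no counts to a level of 940.0 TPM (Rpl36al in an HPV-positive MEER tumour-cell library). Rpl10l, known from the testis, had 0 counts in every library. Rpl39l, also known from the testis, had 0 counts in all tumour-cell libraries and at most 12 counts in a macrophage library, while Rpl39 ranged from 746 to 1540 TPM. Rpl3l, known from striated muscle, had 6 to 11 counts in HPV-negative MEER macrophages, 41 to 55 in HPV-positive MEER macrophages and 2 to 5 in SCCVII macrophages, and at most 1 count in any tumour-cell library. Rps4l, which is no member by the rule, was at 13.5 to 14.6 TPM in HPV-negative MEER macrophages and had 0 counts in the tumour-cell libraries, while Rps4x stood at 1260 to 3130 TPM. Rpl7l1 was 2.36 to 4.25% of the summed TPM of Rpl7 and Rpl7l1, and Rpl36al was 23.1 to 45.5% of that of Rpl36a and Rpl36al. Rpl22l1 made up 9.26 to 35% of the summed TPM of Rpl22 and Rpl22l1, with the lowest value in an SCCVII colony library and the highest in an HPV-negative colony library.

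Rps27 was nearly without counts in 1 group. Rps27 (chr3:90212522-90213651, minus strand) and Rps27rt (chr9:114982366-114982739, minus strand) have the same 252 coding bases, and so cannot be told apart over that length. Rps27 was at 11.5, 0.00 and 0.00 TPM in the 3 HPV-negative colony libraries and between 240.0 and 730.0 TPM in the 20 other libraries, while Rps27rt was at 1080 to 2980 TPM throughout. Rps27l, a related gene that the rule leaves out, was at 300.0 to 425 TPM in HPV-negative colonies and at 574 to 799 TPM in HPV-negative MEER tumour cells.

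The members' share of all counts was largest in the HPV-negative MEER and SCCVII tumour cells. It was 4.77 to 5.79% in HPV-negative MEER tumour cells, 3.54 to 4.29% in HPV-positive MEER tumour cells and 4.63 to 4.98% in SCCVII tumour cells. In macrophages it was 3.62 to 4.05%, 3.55 to 3.72% and 3.03 to 3.42% for the same models. HPV-negative colonies had the lowest share, 2.46 to 2.83%, and SCCVII colonies had 3.54 to 4.56%. With copies by sequence added, the 3 macrophage groups overlapped, at 4.75 to 5.32%, 4.69 to 4.89% and 4.69 to 5.28%, and SCCVII tumour cells reached 7.18 to 7.74% against 6.21 to 7.58% in HPV-negative MEER tumour cells. SCCVII macrophages were thus lower in the members' own counts and not in the family sums. In bulk samples, fewer cells of a type and less RNA per cell cannot be told apart.

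**Figure D2:**
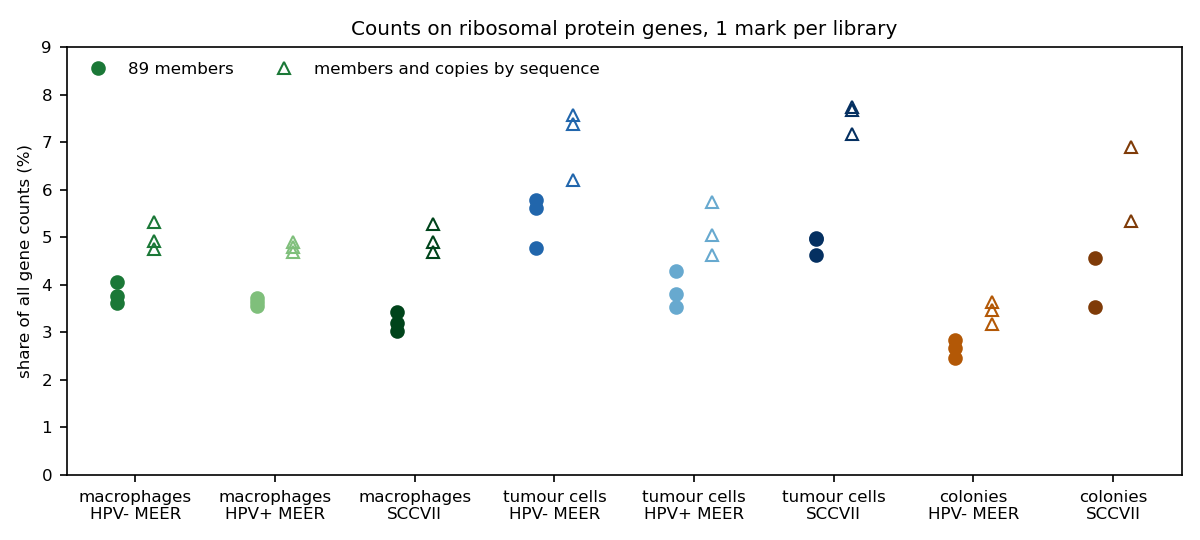
Share of all gene counts on ribosomal protein genes (%, vertical axis) in the 8 groups, with filled circles for the 89 members and open triangles for members and copies by sequence, 1 mark per library. HPV-positive MEER tumour cells (3.54 to 4.29%) lie under both other tumour-cell groups, and HPV-negative colonies (2.46 to 2.83%) under every other group.

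Changes between groups were tested with edgeR across all genes, with TMM scaling, which sets the bulk of genes to no change, so a change is relative to other genes. Levels per library below are depth-scaled counts (CPM) with TMM factors, given as family sums. Comparisons that share a group are not independent of each other.

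Most families, of both subunits, were lower in HPV-positive than in HPV-negative MEER tumour cells. Of 84 members tested, 58 were lower and 0 higher, where 23.9% of all genes tested were lower and 23.2% higher (47.0% in either direction). Of 79 families, 62 were lower and 0 higher (24.2% and 23.3% of all genes in that fit), and the median family change was -0.55 on the log2 scale against -0.01 over all genes. The large subunit had 34 of 48 members lower, the small subunit 22 of 33 and the stalk 2 of 3, counting with each subunit the tested members named as copies. With any 1 library left out, 47 to 63 members were lower and 0 higher.

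Rps24, a small-subunit protein needed for processing of the small ribosomal RNA, was at 1500, 2010 and 1850 CPM in HPV-negative and at 304, 380.0 and 507 CPM in HPV-positive MEER tumour cells. These groups lie far apart, and the change was -2.19 (SE 0.18, edgeR adjusted p = 7.2e-06). Rps23, which lies at the decoding centre, stood at 1470, 1840 and 1720 CPM and at 475, 613 and 864 CPM, and fell by 1.39 (SE 0.18, adjusted p = 0.00018). Its own counts, at most 33.9% of the family's, fell by 1.38. Rps26, a small-subunit protein at the messenger exit, was at 368, 481 and 474 CPM against 180.0, 207 and 220.0 CPM, a change of -1.14 (SE 0.12, adjusted p = 4.4e-05). Rpl37a fell by 1.07, Rps15 by 1.03 and Rps12 by 1.01. Rpl5, which with Rpl11 carries the 5S ribosomal RNA, fell by 1.12 on its own counts and by 0.44 as a family, and Rpl22 and its paralog Rpl22l1 fell by 0.51 and 0.86.

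Of the stalk, Rplp0 was at 3070, 3540 and 3710 CPM in HPV-negative and 2000.0, 2360 and 2770 CPM in HPV-positive MEER tumour cells (-0.55, SE 0.13, edgeR adjusted p = 0.0047). Rplp1 changed by -0.82 (adjusted p = 0.00086), and Rplp2 by -0.45, which was not called (adjusted p = 0.062), its groups overlapping at 549, 862 and 839 CPM against 466, 541 and 666 CPM. Rpsa, the small-subunit protein also known as the laminin receptor, fell by 0.44 (adjusted p = 0.011). Rps29 (0.18, adjusted p = 0.17) and Rps3 (0.17, adjusted p = 0.22), which lies at the messenger entry, were not called.

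Other genes of the translation machinery are read against the 23.9% of all genes that were lower and the 23.2% that were higher. Of 17 translation genes of the 5'TOP class, 12 were lower and 0 higher, among them Btf3 (-1.51, edgeR adjusted p = 6.2e-05), Eef1g (-1.10, adjusted p = 3.4e-05) and Eef2, the translocation factor (-0.75, adjusted p = 0.00046). Fau, whose product is a ribosomal protein made as a fusion to a ubiquitin-like protein and falls outside the naming rule, fell by 1.03. Of 28 ribosome biogenesis genes 8 were lower and 1 higher, and of 14 genes of RNA polymerase I, which makes ribosomal RNA, 1 was lower and 2 higher. Mitochondrial ribosomal proteins, which serve a separate ribosome, had 16 of 77 lower and 13 higher, with a median of 0.02. Myc was at 274 ± 67.7 CPM in HPV-positive and 209 ± 35.8 CPM in HPV-negative MEER tumour cells (SD, n = 3), which was not called (edgeR adjusted p = 0.09).

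The neighbours of Rps24 and Rps23 in the genome were looked at after the values were seen. Of 16 other genes tested within 2 Mb of Rps24 on chromosome 14, 12 were lower and 0 higher in HPV-positive MEER tumour cells, with a median of -1.63. Polr3a, which encodes the catalytic subunit of RNA polymerase III, changed by -1.68 (SE 0.12, edgeR adjusted p = 3.6e-06). Around Rps23 on chromosome 13, 9 of 16 genes were lower and 1 higher, with a median of -0.71. In macrophages of the same models, the 11 genes tested around Rps24 had 5 higher and 2 lower, with a median of 0.10, and Rps24 itself changed by -0.12 (adjusted p = 0.29). What the genes of a region share in these cells was not tested.

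Macrophages of HPV-positive MEER tumours, in contrast to the tumour cells, had members higher than macrophages of HPV-negative MEER tumours, relative to other genes. Of 85 members tested, 30 were higher and 2 lower with TMM scaling, where 22.8% of all genes tested were higher and 25.9% lower (48.7% in either direction). With plain library totals the median of all genes moved to -0.30, and 3 members were higher and 16 lower. The members' median change exceeded that of all genes by 0.23 with TMM. DESeq2 called 47 members higher, and a fit of all 23 libraries called 6 higher and 1 lower. Of 80 families 38 were higher and 1 lower with TMM (23.1% and 26.0% of all genes in that fit). With TMM, all 3 stalk members, 18 of 49 large-subunit and 9 of 33 small-subunit members were higher, with members named as copies included.

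The sizes were small beside those in tumour cells. Rpl18, a large-subunit protein, was at 564, 571 and 542 CPM in HPV-negative and 768, 707 and 756 CPM in HPV-positive MEER macrophages, and rose by 0.44 (SE 0.06, edgeR adjusted p = 0.00032). Rps28 rose by 0.42 (adjusted p = 0.001), and on the member's own counts both were still called with library totals (Rpl18 0.18, adjusted p = 0.024, and Rps28 0.15, adjusted p = 0.048). Rplp1 was at 1090, 1170 and 1040 CPM against 1350, 1400 and 1440 CPM, a rise of 0.37 relative to other genes (adjusted p = 0.0021). Rplp2 rose by 0.32, Rplp0 by 0.24 and Rpsa by 0.35 on the same scale. Rps7 and Rpl12, which held under 50% of their families' counts, rose by 0.49 and 0.60 on their own counts and by 0.34 and 0.27 as families, and with library totals neither was called on its own counts (0.23 and 0.33).

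Rpl7l1 was the 1 family that fell, from 132, 137 and 119 CPM to 101, 97.1 and 93.2 CPM, without overlap (-0.38, SE 0.06, edgeR adjusted p = 0.00071). With library totals it fell by 0.64. Rpl3l rose by 2.96 (SE 0.38, adjusted p = 0.00019), from a level near the bottom of the range. The fusion gene Fau rose as well (0.42, adjusted p = 0.008). The 5'TOP translation genes were divided, with 4 higher and 3 lower of 17. Of the mitochondrial ribosomal proteins, 35 of 77 were lower and 2 higher (median -0.22), against a median of 0.18 for the cytosolic members. Cdkn1a, which encodes the cell cycle inhibitor p21, was at 1020 ± 50.2 CPM in HPV-positive and 234 ± 27.8 CPM in HPV-negative MEER macrophages (SD, n = 3). Markers of dividing cells (4 genes) summed to 256 to 319 CPM in HPV-positive and 513 to 599 CPM in HPV-negative MEER macrophages, and those of macrophages (10 genes, none at 0) to 16800 to 19000 CPM and 22100 to 29400 CPM. Lyz2 made up much of that gap, at 3990, 5050 and 4240 CPM against 10500, 12600 and 10400 CPM. Itgam (1240, 1280 and 1140 against 2150, 2040 and 1930 CPM) was lower as well, without overlap. So were Adgre1 (460, 564 and 521 against 895, 957 and 636 CPM) and Cd68 (762, 806 and 741 against 954, 1040 and 847 CPM). Ptprc was higher in the HPV-positive group (938, 958 and 979 against 708, 660 and 482 CPM), as was Mertk. Csf1r, C1qa, C1qb and Fcgr1 overlapped. Epithelial tumour-cell markers (8 genes) summed to 425 to 554 CPM (2 of the 8 at 0 counts) against 75.3 to 145 CPM (1 of the 8 at 0 counts). Cdh1 carried that sum, at 464, 367 and 497 CPM against 66.4, 50.7 and 44.5 CPM. Epcam was also higher without overlap, at a low level (2.58, 1.04 and 3.41 against 0.389, 0.187 and 0.537 CPM). Krt8, Krt18 and Krt14 overlapped between the groups. Krt5, Krt17 and Trp63 were at most 0.149 CPM in either group, too low to compare. The part of these differences in the members' change was not tested.

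With TMM scaling the members' changes went in opposite directions in macrophages and tumour cells. With library totals more were lower than higher in both, with 3 higher and 16 lower in macrophages and 0 and 54 in tumour cells. The difference between the changes was then tested, a comparison added after they were seen. This comparison does not test whether the directions are opposite. Of 85 members, 67 had a higher HPV-positive minus HPV-negative change in macrophages than in tumour cells and 0 a lower one with TMM scaling, where 19.4% of all genes were higher and 21.6% lower (41.0% in either direction). With library totals, 39 were higher and 2 lower, with the median of all genes at -0.36. Without HPV-negative macrophage library 4, 1 member was lower with TMM. Of the families 68 were higher and 0 lower (19.7% and 21.6% of all genes in that fit), with a median difference of 0.76. Rps24 (2.08, SE 0.22, edgeR adjusted p = 1.6e-06), Rps26 (1.51, SE 0.15, adjusted p = 9e-07) and Rps23 (1.48) had the largest differences among families other than Rpl3l, which is near 0 in tumour cells, and Rps29 (0.21, adjusted p = 0.24) was not called.

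**Figure D3:**
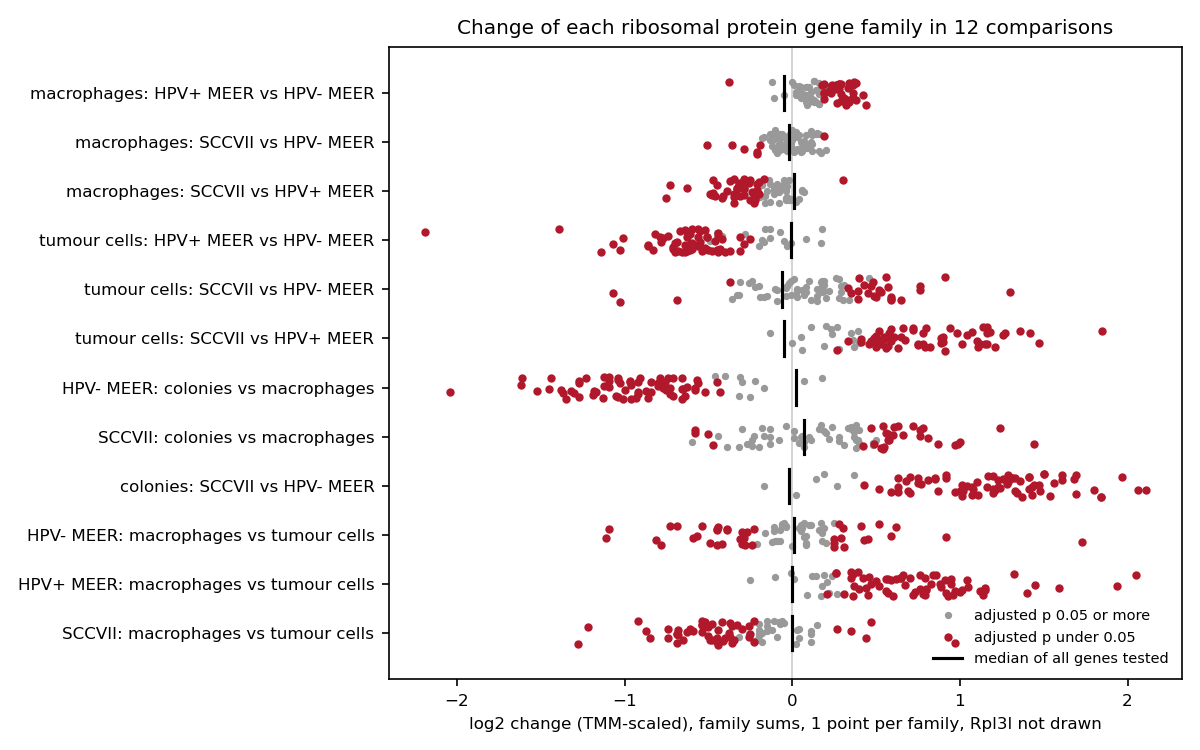
Log2 change of each family sum (horizontal axis, TMM-scaled) in 12 comparisons, with 1 point per family, red where the edgeR adjusted p was under 0.05, a black bar for the median of all genes tested, and Rpl3l left out for its very low counts. HPV-positive against HPV-negative MEER lies to the right of the bar in macrophages (median 0.17) and to its left in tumour cells (median -0.55), where with library totals the macrophage changes move to lower values by the shift of all genes (-0.30).

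Macrophages of SCCVII tumours and of HPV-negative MEER tumours differed little once copies were summed. On the members' own counts 16 of 85 were lower and 2 higher, where 20.5% of all genes tested were lower and 18.7% higher (39.2% in either direction). As families, 6 of 80 were lower and 1 higher (20.7% and 18.8% of all genes in that fit). Rpl3 itself stood at 1.03, 1.52 and 1.60 CPM in SCCVII and at 1140, 1080 and 1090 CPM in HPV-negative MEER macrophages (-9.65, SE 0.14, edgeR adjusted p = 1.8e-10), while the Rpl3 family stood at 1420, 1450 and 1560 CPM against 1360, 1280 and 1300 CPM (0.15, adjusted p = 0.087). Rps3a1 (-7.28), Rpl26 (-7.98) and Rps2 (-7.05) also fell on their own counts, and their families changed by 0.06, -0.12 and 0.04, none of them called. Rpl15 rose by 0.59 on its own counts, and its family changed by 0.08, not called.

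Among the families called lower, Rpl13a had the largest change. It encodes a large-subunit protein known in myeloid cells for a second role outside the ribosome in silencing inflammatory messages. The family was at 895, 913 and 881 CPM in HPV-negative MEER and at 592, 636 and 686 CPM in SCCVII macrophages (-0.51, SE 0.07, edgeR adjusted p = 0.00035). Rplp1 fell by 0.36 (adjusted p = 0.0033), Rpl29 by 0.29 (adjusted p = 0.0038) and Rplp0 by 0.21 (adjusted p = 0.043), with Rpl27 (-0.21) and Rpl37a (-0.19) also lower. Rplp2, the stalk partner of Rplp1, changed by 0.03 (adjusted p = 0.73). Rpl8, a large-subunit protein of the catalytic centre, rose by 0.19 (adjusted p = 0.035).

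Against macrophages of HPV-positive MEER tumours, SCCVII macrophages had 47 of 85 members lower and 3 higher with TMM scaling, where 30.9% of all genes tested were lower and 32.2% higher (63.2% in either direction). With library totals these were 21 and 18, with the median of all genes at 0.27, and a fit of all 23 libraries called 26 lower. Of 80 families 42 were lower and 1 higher with TMM (31.3% and 32.4% of all genes in that fit). Rpl13a fell by 0.75 (SE 0.07, edgeR adjusted p = 9e-06) and Rplp1 by 0.73 (adjusted p = 1.6e-05) relative to other genes, and Rpl7l1 rose by 0.30 (adjusted p = 0.0019). Rpl5 rose by 0.47 on its own counts, but its family changed by -0.02 (adjusted p = 0.87).

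In SCCVII against HPV-negative MEER tumour cells, members were called less often on own counts than all genes were, in either direction. The largest falls on own counts were of Rpl3, Rpl26, Rps2 and Rps3a1, whose SCCVII counts stood on copies, and none of these fell as a family. On own counts, 18 of 84 were higher and 14 lower (27.2% and 31.6% of all genes tested, 58.8% in either direction), and 22 were lower without the first HPV-negative library. As families, 23 of 79 were higher and 4 lower (27.3% and 31.9% of all genes in that fit). Rpl8 was at 894, 1040 and 1010 CPM in HPV-negative MEER and at 2520, 2630 and 2590 CPM in SCCVII tumour cells (1.3, SE 0.10, edgeR adjusted p = 2.3e-06). Rpl30 went from 549, 598 and 585 CPM to 1190, 1160 and 1120 CPM (0.91, adjusted p = 7.7e-05), and Rpl37 and the Rpl3 family rose by 0.76 each. Rps28 rose by 0.74 on its own counts and by 0.47 as a family, and Rpl15 by 0.86 on its own counts while its family was not called (0.18). The 4 families that fell were Rps24 (-1.07, adjusted p = 0.00039), Rps23 (-1.03, adjusted p = 0.00071), Rplp0 (-0.69, adjusted p = 0.00089) and Rpl10 (-0.37).

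Rpl3, Rpl8, Rpl30 and Rpl37 all lie on chromosome 15, which was noticed after the values were seen. The other genes of chromosome 15 had a median change of 0.71 over 536 genes, the highest of 20 chromosomes, the next being chromosome 17 at 0.21. The 4 families had a median of 0.83. Within 2 Mb of Rpl8, 59 of 81 other genes were higher and 10 lower, with a median of 0.85. In macrophages of the same 2 models the median of chromosome 15 was 0.01, and that of the 4 families 0.07. Around Rps24 on chromosome 14, 11 of 16 genes were lower and 3 higher in SCCVII than in HPV-negative MEER tumour cells, with a median of -0.73. What the genes of chromosome 15 share in these cells was not tested.

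**Figure D4:**
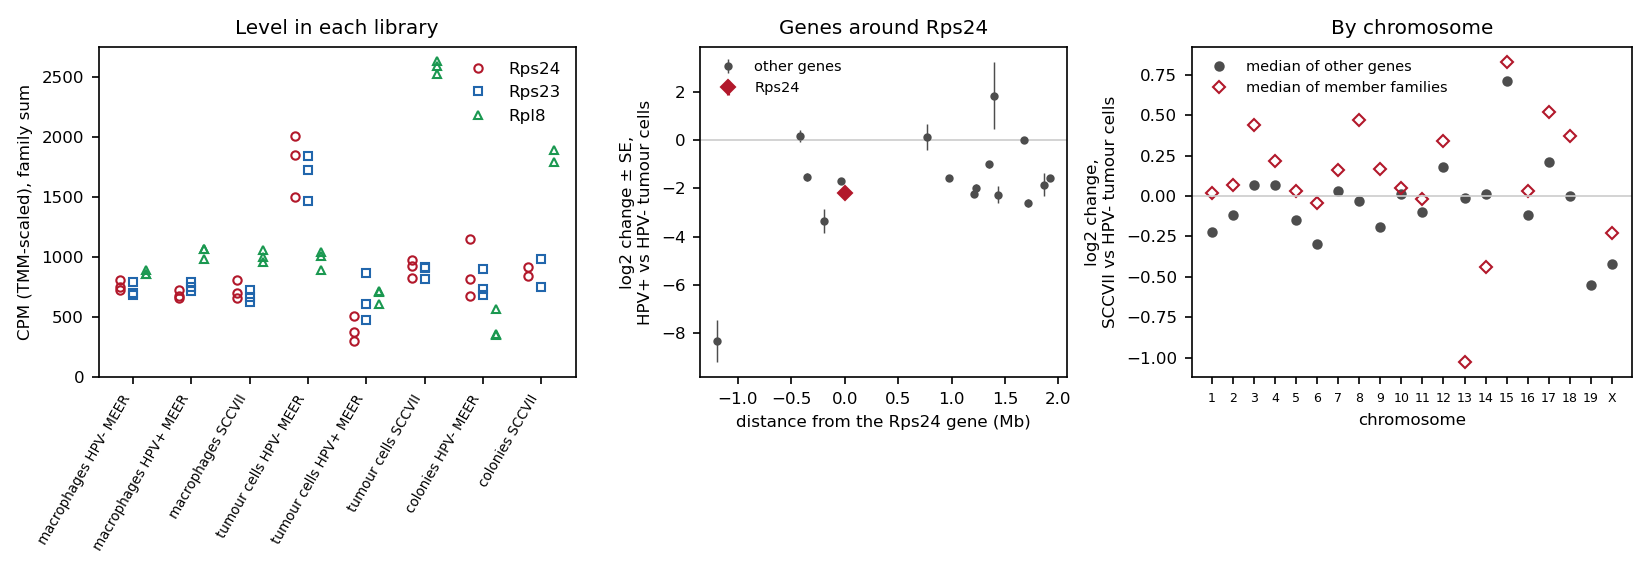
Left, the family sums of Rps24, Rps23 and Rpl8 (CPM, TMM-scaled) in each of the 23 libraries by group. Middle, the log2 change with its SE of genes within 2 Mb of Rps24 between HPV-positive and HPV-negative MEER tumour cells, by distance in Mb. Right, the median log2 change per chromosome of other genes and of member families between SCCVII and HPV-negative MEER tumour cells. Rps24 (-2.19) lies among neighbours with a median of -1.63, and chromosome 15 is highest at 0.71.

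Against HPV-positive MEER tumour cells, the SCCVII tumour cells had 50 of 84 members higher and 8 lower (30.0% and 34.1% of all genes tested, 64.0% in either direction) and 63 of 79 families higher and 0 lower (30.2% and 34.2% of all genes in that fit). None of the 8 was lower as a family. Rpl8 rose by 1.85 (SE 0.10, edgeR adjusted p = 1.5e-07), the Rpl3 family by 1.47, Rpl37 by 1.42 and Rpl30 by 1.36. Of the 5'TOP translation genes 14 of 17 were higher and 0 lower, and of the biogenesis genes 12 of 28 were higher and 1 lower. Rplp0 was not called (-0.13, adjusted p = 0.37).

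Libraries of colonies differed from each other and in part from their label. Csf1r, a receptor found on macrophages, was at 558, 5.21 and 0.664 CPM in the 3 HPV-negative colony libraries. It was at 91.0 and 10.1 CPM in the SCCVII ones, against 2480 to 3550 CPM in the 9 macrophage libraries. Other macrophage markers did not all follow Csf1r. Adgre1 was at 1240, 2.84 and 0.0302 CPM in HPV-negative and 140 and 5.19 CPM in SCCVII colonies, against 460 to 1040 CPM in macrophages. Cd68 was at 172, 31.0 and 12.9 CPM and at 729 and 81.4 CPM, against 741 to 1170 CPM. Neutrophil markers (6 genes) summed to 1.12 to 303 CPM in HPV-negative colonies, with S100a9 at 127 CPM in library 1. The 10 macrophage markers summed to 65.2 to 13100 CPM in HPV-negative and 1180 to 14200 CPM in SCCVII colonies, with Lyz2 alone at 13000 and 1030 CPM in the SCCVII ones. C1qa was at 0 in HPV-negative colony libraries 2 and 3 and at 0.43 and 0.18 CPM in the SCCVII colonies. Fibroblast markers (6 genes) summed to 360.0 to 1270 CPM and 2780 to 4090 CPM in the same colonies. They summed to 64.8 to 141 CPM in HPV-negative MEER tumour cells, 2660 to 2790 CPM in SCCVII tumour cells and at most 75.1 CPM in macrophages. In HPV-negative colonies Col1a1 and Col3a1 carried the sum, with Col1a2 at 4.75, 1.55 and 2.56 CPM. The near sums of SCCVII colonies and SCCVII tumour cells hid genes that differed both ways. Dcn (127 and 461 against 3.28 to 3.77 CPM) and Pdgfra (312 and 785 against 121 to 129 CPM) were higher in the colonies. Col1a1 (592 and 351 against 624 to 680 CPM) and Col1a2 (923 and 653 against 1340 to 1420 CPM) were lower, and Col3a1 overlapped. Epithelial tumour-cell markers (8 genes) summed to 338 to 465 CPM in HPV-negative colonies and 180 to 266 CPM in SCCVII colonies, most of it Krt8 and Krt18. In tumour cells of these models they summed to 308 to 479 and 1010 to 1100 CPM. In macrophages of these models the sums were 75.3 to 145 and 106 to 129 CPM. Mdm2, a p53 target that Rpl5 and Rpl11 bind, was at 1340, 2450 and 1990 CPM in HPV-negative colonies and 3310, 4060 and 2760 CPM in HPV-negative MEER tumour cells, but at 76.3 to 419 CPM in all other libraries. The part of other cells in the colony results was not tested, and the counts of members, though not those of families or other lists, are given with libraries left out.

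Colonies of HPV-negative MEER had most members lower than the macrophages of that model. Of 84 tested, 63 were lower and 2 higher (28.7% and 34.0% of all genes tested, 62.7% in either direction). As families, 69 of 79 were lower and 0 higher (29.0% and 34.1% of all genes in that fit), with a median of -0.91. Without colony library 1, the one with the highest Csf1r level, 65 were lower and 3 higher, and over all libraries left out in turn 53 to 65 were lower and 1 to 3 higher. Rps29 was at 782, 905 and 754 CPM in macrophages and 272, 164 and 163 CPM in colonies (-2.04, SE 0.24, edgeR adjusted p = 0.00019). Rpl11 fell by 1.44, Rplp2 by 1.45 and Rplp1 by 1.35. As families, Rps24 (0.18, adjusted p = 0.41) and Rps23 (0.07, adjusted p = 0.74) were not called, and their groups overlapped. The 2 members called higher were Rps23 (0.65, adjusted p = 0.024) and Rpl5 (1.23, adjusted p = 0.0073) on their own counts, and the Rpl5 family was not called (-0.32, adjusted p = 0.075). Rps29 on its own counts was not called either (-0.80, adjusted p = 0.19). Rps27 fell by 7.1 on its own counts and by 0.74 as a family, and Rps13 by 1.54 and 1.27. Of the mitochondrial ribosomal proteins 43 of 77 were lower and 6 higher.

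SCCVII colonies against SCCVII macrophages had more members higher than lower. Of 84 members, 27 were higher and 2 lower (29.7% and 22.3% of all genes tested, 51.9% in either direction), which for the higher ones is near the background. As families, 26 of 79 were higher and 4 lower (30.0% and 22.4% of all genes in that fit). Without SCCVII colony library 2, 14 members were higher and 2 lower, and without library 1, 30 were higher and 1 lower. Rpl37 was at 320.0, 336 and 372 CPM in macrophages and 899 and 967 CPM in colonies (1.44, SE 0.14, edgeR adjusted p = 7e-05). Rpl38 rose by 1.24, Rps15 by 1.00 and Rpl30 by 0.97, and the Rpl3 family (-0.50) fell.

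SCCVII colonies against HPV-negative colonies had 60 of 84 members higher and 8 lower (20.5% and 19.9% of all genes tested, 40.4% in either direction), and 73 of 79 families higher and 0 lower (20.7% and 19.8% of all genes in that fit). Leaving out each library gave 51 to 63 higher and 7 to 9 lower. Rpl8 was at 565, 349 and 363 CPM in HPV-negative and 1790 and 1890 CPM in SCCVII colonies (2.11, SE 0.24, edgeR adjusted p = 0.00033). Rplp2 was at 300.0, 183 and 179 CPM against 860.0 and 865 CPM (1.97, adjusted p = 0.00052), and Rpl37 rose by 2.06. Rps24 (0.02, adjusted p = 0.95), Rps23 (0.19, adjusted p = 0.44) and Rpl22l1 (-0.17, adjusted p = 0.65) were not called. Fau rose by 1.07, and 41 of 77 mitochondrial ribosomal proteins were higher and 6 lower.

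The difference between both models in the change from macrophage to colony was called for 56 members as higher in SCCVII and for 1 as lower, where 13.5% of all genes tested were higher and 10.6% lower (24.1% in either direction). As families, 61 were higher and 0 lower (13.6% and 10.6% of all genes in that fit). Leaving out each library gave 45 to 64 higher. Rpl37 (2.15, SE 0.20, edgeR adjusted p = 0.00032), Rplp2 (1.92) and Rpl8 (1.91) had the largest differences, and Rps24 (0.10, adjusted p = 0.84) and Rpl22l1 (0.00, adjusted p = 1.0) were not called. The single member called lower was Rpl5, on its own counts (-2.45, adjusted p = 0.0069), whose family was not called (0.19, adjusted p = 0.57).

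**Figure D5:**
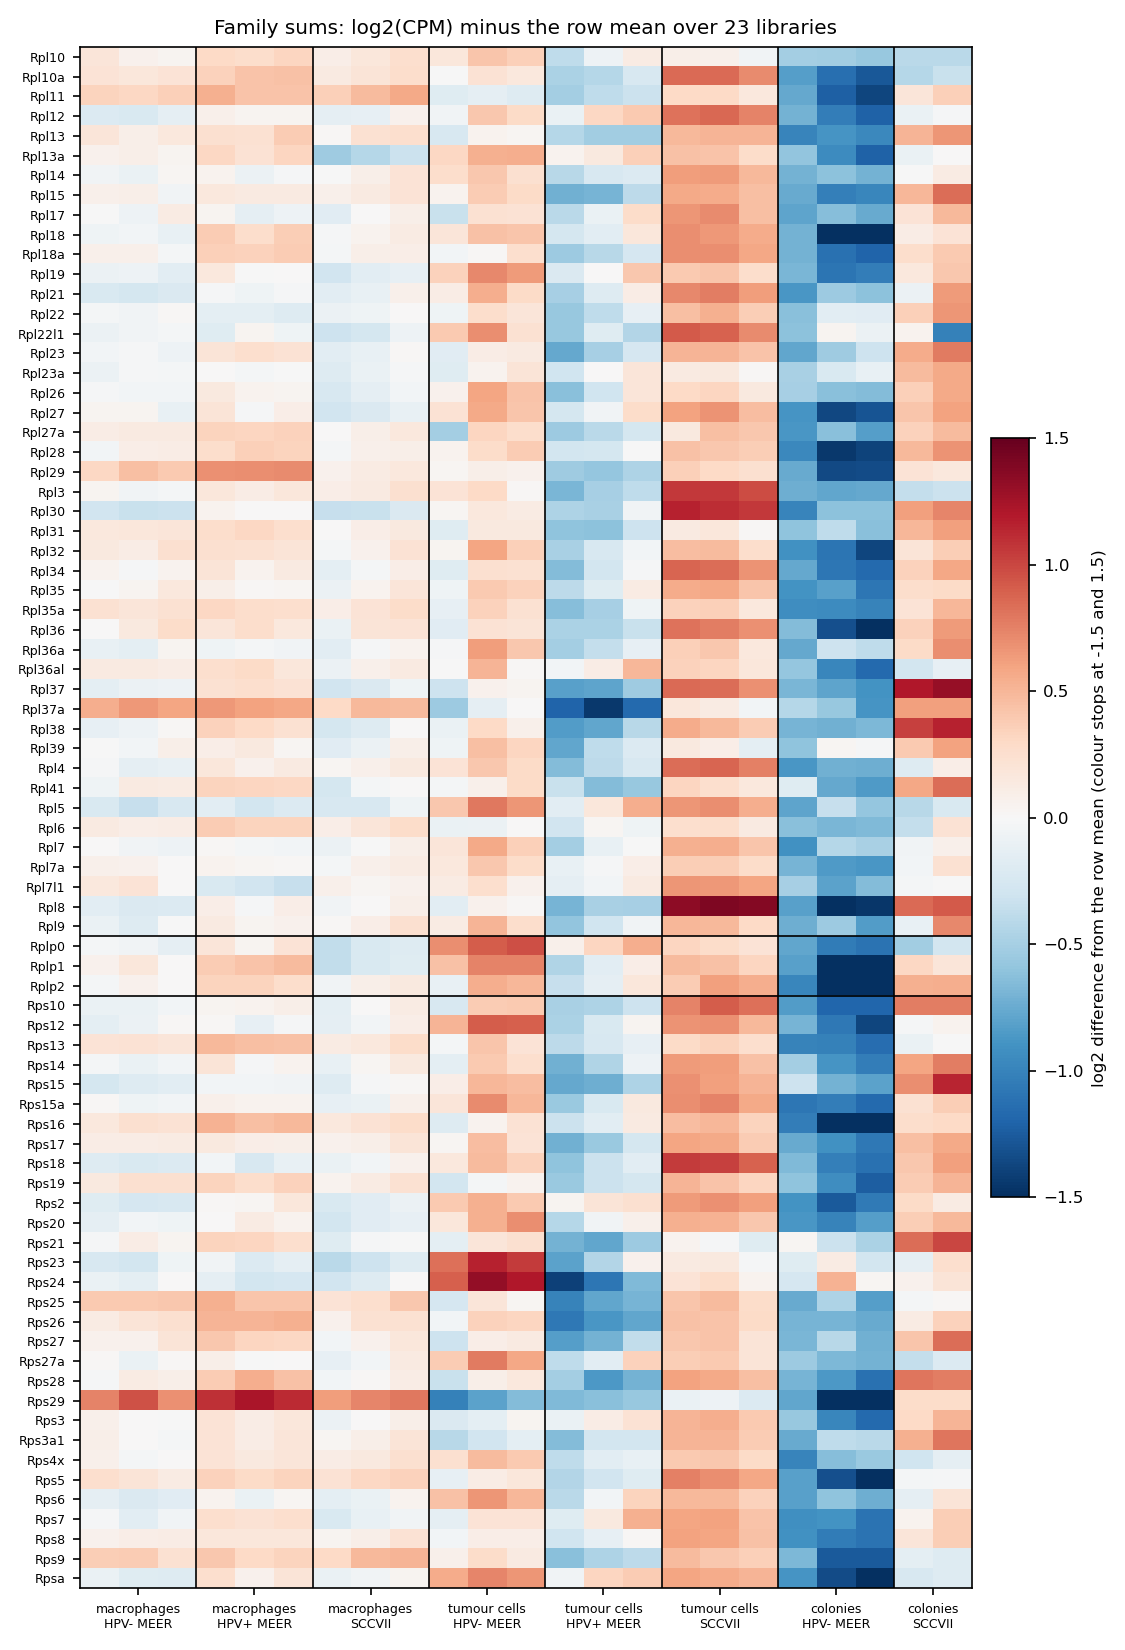
Each row is a family sum with a median of at least 10 CPM (78 families drawn), each column a library, and the colour is log2(CPM) minus the row's mean over the 23 libraries, stopping at -1.5 and 1.5. Black lines part the groups and, from the top, the large-subunit (45), stalk (3) and small-subunit (30) families. HPV-negative colonies are blue in most rows, HPV-positive MEER tumour cells in many, and Rps24 and Rps23 stand out in red in HPV-negative MEER tumour cells, as does Rpl8 in SCCVII tumour cells.

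With TMM scaling, the members gave 3 different pictures between macrophages and tumour cells of the same model. With library totals more members were lower than higher in macrophages of all 3 models. For HPV-negative MEER, 17 of 85 members were higher in macrophages and 31 lower with TMM scaling (38.7% and 37.4% of all genes tested, 76.1% in either direction). With library totals 5 were higher and 55 lower, with the median of all genes at -0.30, and without HPV-negative tumour-cell library 2, 15 were lower with TMM. As families these were 16 and 27 of 80 (39.1% and 37.8% of all genes in that fit). For HPV-positive MEER 68 were higher and 2 lower with TMM (39.6% and 39.1%, 78.8% in either direction), and 18 higher and 28 lower with library totals, where the median of all genes was at -0.65. Without HPV-positive tumour-cell library 3, 1 was lower with TMM. As families 66 were higher and 0 lower (39.9% and 39.5%). For SCCVII 6 were higher and 47 lower with TMM (37.4% and 35.5%, 73.0% in either direction) and 2 and 67 with library totals, with all genes at -0.19, and 6 and 46 as families (37.8% and 35.9%).

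The Rps29 family, of which the member itself held at most 0.939% of the counts, was higher in macrophages in each model, at 754 to 905 CPM against 232 to 297 CPM in HPV-negative MEER, 1000 to 1090 against 295 to 316 CPM in HPV-positive MEER and 721 to 807 against 406 to 444 CPM in SCCVII. The changes were 1.73, 1.94 and 0.97, each with SE 0.10 (edgeR adjusted p = 1.6e-10, 3.1e-11 and 1.5e-07). On its own counts Rps29, a small-subunit protein with a zinc-binding site, rose by 1.46 and 1.08 in the first and second and was not called in SCCVII (0.30, adjusted p = 0.44). Rpl37a rose by 0.92, 2.05 and 0.47, the last not called on its own counts with library totals (0.25, adjusted p = 0.06). Rpl11 rose by 0.62 in HPV-negative MEER, and Rps26 and Rps28 by 1.59 and 1.32 in HPV-positive MEER. Rpl12 and Rpl10 also differed between own counts and family sums. Rpl12 fell by 1.41, 0.89 and 2.06 on its own counts, and its family changed by -0.30, 0.01 (not called) and -0.74. Rpl10 rose by 0.66, 1.52 and 0.53 on its own counts, of which the first and the last were not called with library totals (0.35 and 0.29), while its family changed by -0.10 (not called), 0.57 and 0.27.

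Rplp0 was 0.81 lower in macrophages than in tumour cells of HPV-negative MEER (log2 change -0.81, SE 0.11, edgeR adjusted p = 5.5e-06) and 0.40 lower in SCCVII (-0.40, adjusted p = 0.0036), but not called in HPV-positive MEER (-0.01, adjusted p = 0.95). Rps24 was lower in HPV-negative MEER macrophages (-1.11, adjusted p = 6.1e-06), higher in HPV-positive MEER macrophages (0.97, adjusted p = 2.2e-05) and not called in SCCVII (-0.20, adjusted p = 0.25). Its level in macrophages was 661 to 809 CPM over all 9 libraries, and in tumour cells 304 to 2010 CPM. In SCCVII, Rpl30 (-1.28) and Rpl8 (-1.22) were the most lowered families in macrophages. Rpl10a fell by 1.19 on its own counts and 0.48 as a family, and Rpl10-ps3 rose by 0.32 with TMM and was not called with library totals (0.07).

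The genes that assemble ribosomes were low in macrophages of all models. Of 28 biogenesis genes, 23, 22 and 27 were lower in macrophages than in tumour cells of the HPV-negative form, the HPV-positive form and SCCVII, and 1, 3 and 0 were higher, where 37.4%, 39.1% and 35.5% of all genes were lower. Wdr12, a factor of large-subunit assembly, was at 26.3 ± 0.81 CPM in macrophages and 123 ± 32.8 CPM in tumour cells of HPV-negative MEER (SD, n = 3). Of 14 RNA polymerase I genes, 10, 10 and 9 were lower and 2, 3 and 0 higher. Myc was at 71.7 ± 14.6 CPM in macrophages and 209 ± 35.8 CPM in tumour cells of HPV-negative MEER, and fell by 1.42, 2.08 and 2.06 in the 3 models (edgeR adjusted p = 1.3e-06, 1.4e-08 and 1.8e-08). The biogenesis genes were thus lower in HPV-positive MEER macrophages, where the members were higher with TMM scaling.

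Across macrophages, tumour cells and colonies, 7 members were lower in SCCVII than in HPV-negative MEER in each of the 3 kinds of sample, namely Rpl21, Rpl26, Rpl29, Rpl3, Rps18, Rps2 and Rps3a1. Of all genes tested in the 3 comparisons, 457 of 12714 (3.59%) behaved so. As families none of the 7 was lower in all 3. At most 84 members were tested in all 3. Rpl15 and Rpl8 were higher in each, which as a share is not above the 3.67% of all genes. As a family only Rpl8 was higher in each, by 0.19, 1.3 and 2.11.

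The first transcribed bases were read for the 62 of 82 members with an entry in the RefSeq promoter table (GRCm38.p6). A run of at least 5 pyrimidines that begins with C within 5 bases of the annotated start was found in 27 of them (43.5%), against 3250 of 17430 other coding genes (18.6%). The letters searched were C and T, on the gene's strand only. Starts are shown for members on which the results turn, each from 10 bases before the annotated start to the 20th base from it, with the run in capitals. Rps24 is at chr14:24490668-24490697 (plus), Rps23 at chr13:90923112-90923141 (plus), Rps26 at chr10:128626487-128626516 (minus) and Rpl13a at chr7:45128726-45128755 (minus).
Rps24: gctggggtCCTTCCTTgcgcgttgatatga
Rps23: cggctgggcggggCTTCCCgcaatgccttg
Rps26: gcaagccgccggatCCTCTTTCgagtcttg
Rpl13a: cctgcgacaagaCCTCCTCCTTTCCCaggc
The runs have 8, 6, 8 and 14 bases. The run was found in starts of members that fell in HPV-positive MEER tumour cells (Rps24, Rps23, Rps26) and in that of Rpl13a, which was not called there (-0.28, edgeR adjusted p = 0.053). It was not found in the starts of Rpl37a, Rps15, Rps12 and Rplp0, which fell as well, and a missing run says only that these letters are not in this window.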

How the data were processed

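Libraries were made with a TruSeq stranded mRNA kit, per the labels' protocols. The authors deposited RSEM gene tables with expected counts (estimated reads per gene, divided among genes where a read fits several), TPM (a level per length from the same estimate, scaled to the same sum in each library) and the gene length used. STAR 2.5.3a, RSEM 1.3.0, FastQC, MultiQC and the build mm10 (GRCm38) are named in the submitters' processing notes. For the annotation release and strand setting, the entry is: not given in the sources used here. The 20 libraries of 1 table and the 3 HPV-negative colony libraries of the other were joined by gene.

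Expected counts were rounded and tested with edgeR 4.0.16 (quasi-likelihood, R 4.3.3, limma 3.58.1), after TMM scaling and filterByExpr (count 10, total 15). P-values were adjusted by Benjamini-Hochberg over all genes tested, with a threshold of 0.05. Fits held the 9 macrophage, the 9 tumour-cell, the 11 HPV-negative and SCCVII colony and macrophage, or the 18 macrophage and tumour-cell libraries, by group. Copies were found with BLAST 2.17.0. Scripts were tested on simulated data. Alternatives were RLE factors, TMM without the members, library totals, no filter, DESeq2 1.42.0, all 23 libraries in 1 fit, the replicate number as a block, copies by symbol or by sequence, and leaving out each library. Library totals, copies by sequence and the difference of HPV changes were added after seeing the data.

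The members, lists and tests were chosen with earlier results of these data known. In each comparison the text names the 4 largest rises and falls among called members that reach 10 CPM throughout the higher group and do not overlap between groups. Always named were paralog pairs, the stalk genes, Rpsa, and Rpl3 and Rps3a1 with their copies. Single results of a few genes are not reported here. Depth limits only members with few counts, such as Rpl3l.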

Additional observations from a re-analysis of the deposited data

Results flagged for a closer look

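The change from macrophage to colony differed between SCCVII and HPV-negative MEER by a test of the difference itself. It was higher in SCCVII for 56 members and lower for 1, Rpl5. The HPV-positive minus HPV-negative change differed between macrophages and tumour cells in the same way, higher in macrophages for 67 members and lower for 0 with TMM scaling, against 39 and 2 with library totals. Group and separate table cannot be told apart in the first, and the second compares single lines.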

How the results depend on the processing

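Counts are of members higher and lower, by edgeR unless named. With library totals, HPV-positive against HPV-negative macrophages gave 3 and 16 in place of 30 and 2, SCCVII against HPV-positive macrophages 18 and 21, macrophages against tumour cells 5 and 55 (HPV-negative), 18 and 28 (HPV-positive) and 2 higher (SCCVII), the difference of HPV changes 39 and 2, and SCCVII colonies against macrophages 1 lower. DESeq2 gave 47 higher in HPV-positive against HPV-negative macrophages, 5 higher in SCCVII against HPV-negative macrophages and 7 lower in SCCVII colonies against macrophages. All 23 libraries in 1 fit gave 6 and 1, 1 higher, and 6 lower in these, 26 lower in SCCVII against HPV-positive macrophages and 9 higher in HPV-negative macrophages against tumour cells. Without a filter, SCCVII against HPV-negative macrophages had 1 higher and SCCVII colonies against macrophages 1 lower, and with RLE factors the latter had 4 lower.

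With copies by symbol and by sequence in turn, members lower were 1 and 1 (HPV-positive against HPV-negative macrophages), 9 and 6 (SCCVII against HPV-negative macrophages), 5 and 0 (SCCVII against HPV-positive tumour cells), 5 and 4 (SCCVII colonies against macrophages), 5 and 0 (SCCVII against HPV-negative colonies) and 1 and 0 (HPV-positive macrophages against tumour cells). Members higher were 1 and 1 in SCCVII against either MEER macrophage group. By sequence alone, 4 were lower in SCCVII against HPV-negative tumour cells, 0 higher in HPV-negative colonies against macrophages and 0 lower in the difference of colony changes. The median share of counts became 4.29 and 4.93% (HPV-negative), 4.17 and 4.8% (HPV-positive) and 4.06 and 4.91% (SCCVII) in macrophages, 6.43 and 7.39%, 4.35 and 5.04%, and 6.35 and 7.68% in tumour cells, and 3.01 and 3.47% (HPV-negative) and 5.05 and 6.12% (SCCVII) in colonies. By CPM in place of TPM, 1 of the 5 highest members was shared.

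Directions turned only with copies summed, by symbol and by sequence. Against HPV-negative macrophages, SCCVII macrophages had Rpl3 at 0.15 and 0.15, Rps2 at 0.04 and 0.04, Rps3a1 at 0.06 and 0.06, and Rpl15 at -0.53 by symbol. Against HPV-positive macrophages Rpl15 was at -0.66 and -0.05, and Rpl5 at -0.02 by sequence. SCCVII against HPV-negative tumour cells had Rpl3 at 0.76 and 0.76, Rps2 at 0.07 and 0.11, Rps3a1 at 0.65 and 0.65, and Rpl15 at -0.40 by symbol. SCCVII against HPV-positive tumour cells had Rpl3 at 1.47 and 1.47, Rps2 at 0.36 and 0.41, Rps3a1 at 0.78 and 0.78, and Rpl26 at 0.39 by sequence. SCCVII against HPV-negative colonies had Rpl3 at 0.42 and 0.43, Rps2 at 1.27 and 1.28, and by sequence Rpl26 at 1.07 and Rpl29 at 1.31. By sequence Rpl5 was at -0.32 in HPV-negative colonies against macrophages and Rpl12 at 0.01 in HPV-positive macrophages against tumour cells, and Rpl10 was at -0.10 and -0.10 in HPV-negative macrophages against tumour cells. These sums count other genes with the member by construction.

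Leaving out each library in turn gave 1 to 3 lower in HPV-positive and 1 to 3 higher in SCCVII against HPV-negative macrophages. It gave 14 to 22 lower in SCCVII against HPV-negative tumour cells, 1 to 3 higher in HPV-negative colonies against macrophages, and 14 to 30 higher and 1 to 2 lower in SCCVII colonies against macrophages. It gave 15 to 34 and 1 to 2 lower in HPV-negative and HPV-positive macrophages against tumour cells, and 0 to 1 lower in the difference of HPV changes. The low end of 1 in the counts of 2 came without HPV-negative macrophage library 1 or 4 or HPV-positive library 1 (first count), without HPV-negative macrophage library 1 or 2 or SCCVII library 2 or 3 (second count), and without HPV-negative macrophage library 1 or 2 or colony library 2 (HPV-negative colonies). It came without any 1 macrophage library or colony library 1 for SCCVII colonies.

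With the replicate block, 17 members in place of 56 were higher in the difference of colony changes, 1 was higher in HPV-negative colonies against macrophages and 1 lower in SCCVII colonies against macrophages. The block moved no other count of members by more than 1.5 times. The numbers were not shown to pair the samples: same-numbered HPV-negative and HPV-positive macrophages had correlations of 0.152 and 0.114, and HPV-negative and SCCVII macrophages -0.04 and 0.123. Of comparisons with 3 pairs, only SCCVII with HPV-negative tumour cells had every sample correlate best with its own number. Among single members, calls were lost in 44 values of the planned and 16 of the added alternatives. Unless stated, the cause of a change with a setting was not tested.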
